A study of Mus musculus with 4 samples.

Results

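Pseudogenes, the copies and relics of genes that the annotation does not count as coding, made up 10723 of 99567 transcripts measured in adult mouse neural stem cells. They belonged to 10123 of 32564 genes. Members were all transcripts whose gene type in GENCODE M21, an annotation of the mouse genome build GRCm38 (mm10), contains the word pseudogene, matched by identifier without its version. RNA from 4 libraries of 1 group was sequenced. The cells came from gfap:GFP transgenic mice of mixed CD1/C57BL/6 background, 3 months old, were sorted as activated cells positive for Prom1, EGFR and GFAP, and had no treatment according to the sample labels. The gfap:GFP reporter marks cells by a promoter that astrocytes also use, and the labels do not say which animals gave which library. The design text of the series speaks of quiescent cells from mice given aCSF or miR204 antagomers. No sample label names those groups, so none were compared, and any such treatment would lie inside every SD given here. P-values measure only the spread between these libraries, which may be technical.

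The libraries held 16978938 to 23727664 estimated counts. The genes for the sorting markers were present in all libraries, at 149 ± 54.4 TPM for Gfap, 23.1 ± 7.01 TPM for Prom1 and 89.7 ± 23.1 TPM for Egfr (SD, n = 4). TPM is a relative level of each transcript, corrected for its length and scaled to one fixed library total. The summed level of 8 neural stem cell markers was 1959 to 2712 TPM, with none at 0. Markers of other cells were also seen. The summed levels were 2013 to 3410 TPM for 4 oligodendrocyte genes, 318 to 709 TPM for 4 ependymal genes, 67.4 to 229 TPM for 4 microglia genes and 167 to 256 TPM for 3 neuron genes. For 3 erythroid genes the sum was 53.0 to 1898 TPM, and for 3 endothelial genes it was 3.54 to 4.34 TPM, with Cdh5 at 0. In sorted bulk samples, fewer cells of a type and less RNA per cell cannot be told apart. The part of these other cells in the values below was not tested.

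A processed pseudogene arises when an mRNA is reverse transcribed and inserted into a chromosome, so it lacks introns and often resembles the coding sequence of its parent. An unprocessed pseudogene comes from duplicated DNA. Pieces of the mitochondrial chromosome have also been inserted into nuclear chromosomes, and the annotation lists such nuclear mitochondrial copies as pseudogenes of either kind. Highly expressed housekeeping genes, above all those of ribosomal proteins, have many processed copies in mammals. Reads that fit several transcripts are divided between them by estimate in kallisto, the tool named in the submitters' processing notes.

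Some of the members whose levels or equal values are reported were nearly identical in sequence to the gene they copy, and others had no matched gene. The printed sequences are RNA-sense sequences of GENCODE M21 transcripts, 5′ to 3′, for members whose length in the files equals that of the annotation. The first pairs hold, in capitals, the single base at which a copy differs from the gene it matches within the aligned bases. For Gm29216 the window is chr1:24616145-24616188 on the minus strand, and for mt-Co1 it is chrM:6390-6433. The change is A13T, the mitochondrial base first, then the position from the 5′ end of the copy, then the base of the copy. For Gm28438 (chr1:24613077-24613119, minus strand) against mt-Nd3 (chrM:9459-9501) the change is T3C. For Gm13394 (chr2:28934224-28934304, minus strand) against Gapdh it is A346C, and for Rpl35a-ps2 (chr1:181242125-181242205, minus strand) against Rpl35a it is G156A, both written with the base of the matched gene first.
Gm29216: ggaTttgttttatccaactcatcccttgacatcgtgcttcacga
mt-Co1: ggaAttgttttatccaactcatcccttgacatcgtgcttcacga
Gm28438: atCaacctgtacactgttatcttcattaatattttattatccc
mt-Nd3: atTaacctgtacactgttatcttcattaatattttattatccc
Gm13394: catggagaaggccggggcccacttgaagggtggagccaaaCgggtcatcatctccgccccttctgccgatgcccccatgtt
Gapdh: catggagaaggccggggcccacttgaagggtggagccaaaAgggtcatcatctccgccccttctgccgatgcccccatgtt
Rpl35a-ps2: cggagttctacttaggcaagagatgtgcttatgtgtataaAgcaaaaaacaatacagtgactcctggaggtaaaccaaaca
Rpl35a: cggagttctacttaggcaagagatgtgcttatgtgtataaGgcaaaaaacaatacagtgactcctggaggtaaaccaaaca

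Gm12895 (chr4:122455210-122455435, plus strand) and Gm12896 (chr4:122122847-122123072, plus strand) are shown whole because they had the same TPM in every library. They share 224 bases and are shifted by 2 bases against each other, with the bases outside the shared stretch in capitals. Gm29013 (chr1:105244425-105244661, plus strand) is shown for its run of 35 A bases, in capitals. Gm12338 (chr11:75599763-75599954, minus strand) is shown as a short copy that is identical over its whole length to part of a transcript of Cox7c.
Gm12895: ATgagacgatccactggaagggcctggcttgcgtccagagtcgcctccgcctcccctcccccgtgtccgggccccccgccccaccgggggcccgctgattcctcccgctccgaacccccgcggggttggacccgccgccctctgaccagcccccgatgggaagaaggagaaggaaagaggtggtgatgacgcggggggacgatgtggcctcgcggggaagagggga
Gm12896: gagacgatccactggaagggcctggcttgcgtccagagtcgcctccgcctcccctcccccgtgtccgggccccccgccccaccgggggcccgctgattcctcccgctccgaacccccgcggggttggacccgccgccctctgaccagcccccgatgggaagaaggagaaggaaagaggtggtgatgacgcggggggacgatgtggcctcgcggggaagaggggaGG
Gm29013: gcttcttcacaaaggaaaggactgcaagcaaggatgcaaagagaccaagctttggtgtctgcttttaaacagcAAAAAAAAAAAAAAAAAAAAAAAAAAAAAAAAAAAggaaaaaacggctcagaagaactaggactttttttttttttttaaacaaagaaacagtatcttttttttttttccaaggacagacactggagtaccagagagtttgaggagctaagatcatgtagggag
Gm12338: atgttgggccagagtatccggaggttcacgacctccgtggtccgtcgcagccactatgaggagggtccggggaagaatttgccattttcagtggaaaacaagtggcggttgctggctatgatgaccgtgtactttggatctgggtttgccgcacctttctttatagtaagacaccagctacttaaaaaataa

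Pseudogenes held 6.35, 6.49, 5.35 and 6.25% of TPM in libraries 1 to 4, a mean of 6.11 ± 0.517% (SD, n = 4). Of the estimated counts they held 1.66, 1.65, 1.43 and 1.65%. The share of TPM was therefore larger than the share of counts in 4 of 4 libraries, by 4.51 ± 0.406 percentage points (two-sided exact sign-flip permutation test over libraries, p = 0.125, the least that 4 libraries can give). TPM corrects each count for transcript length, and the lengths are the same in every library. The direction was thus largely set beforehand, and the test adds nothing to this description. Without the nuclear copies of mitochondrial genes the difference was 2.87 percentage points, still above 0 in each library. A few members carried most of the signal. The single highest gene held 29.7 ± 1.26% of all pseudogene TPM, the 10 highest genes 63.0 ± 2.68% and the 100 highest 93.4 ± 0.873%.

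Processed pseudogenes, including transcribed ones, were 7410 of the 10723 transcripts and unprocessed ones 2858. The remaining 455 transcripts were of polymorphic, unitary, immunoglobulin, T cell receptor and unspecified types. Processed members held 3.88, 3.83, 3.34 and 3.63% of TPM in the 4 libraries. Unprocessed members held 2.44, 2.62, 1.97 and 2.59%. The processed share was higher in 4 of 4 libraries, by 1.27 ± 0.177 percentage points (exact sign-flip permutation test, two-sided, p = 0.125, the smallest possible). The difference was 0.798 points over the plain types without the transcribed ones and 0.453 points as a share of estimated counts. It was 3.37 points without the mitochondrial copies, since unprocessed members without those copies held only 0.304 ± 0.115% of TPM. All other types together held 0.0351 ± 0.00331%. Of these, the 59 genes of the type called simply pseudogene held 0.0210 ± 0.00241% and the 15 genes of transcribed unitary pseudogenes 0.00972 ± 0.00112%. The 155 immunoglobulin variable pseudogenes summed to 0 in every library.

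**Figure D1:**
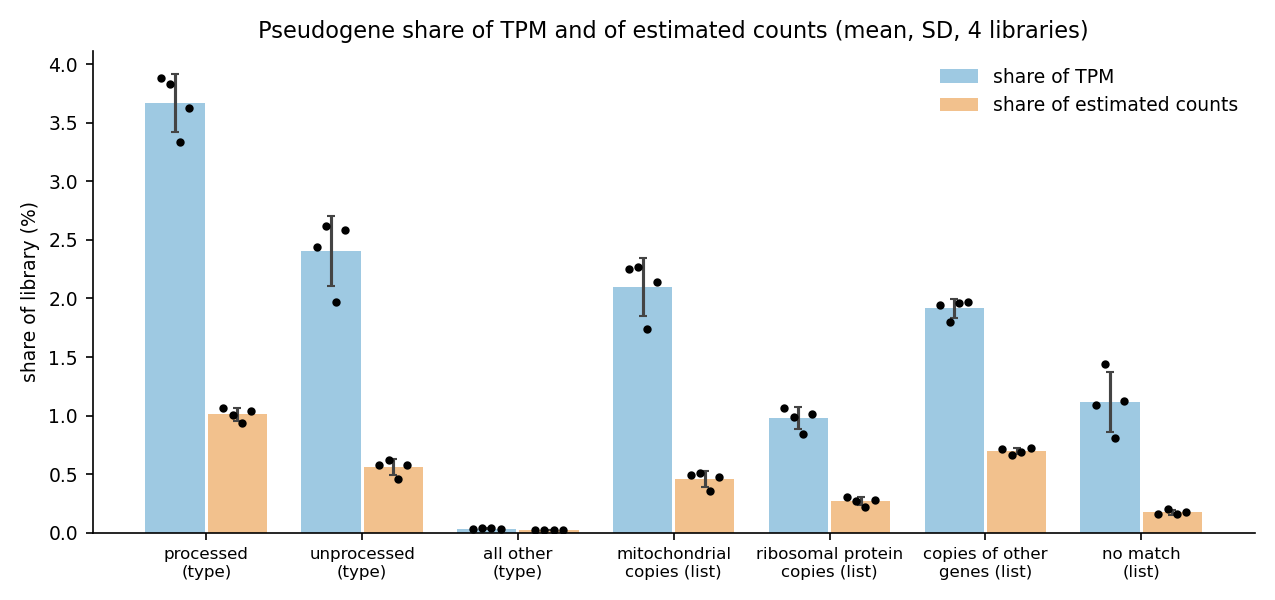
Share of TPM (blue) and of estimated counts (orange) held by pseudogenes in percent of the library, for 3 groups of annotated type on the left and 4 lists by sequence match on the right. Bars are means of 4 libraries, error bars are the SD and points are single libraries; the TPM bar stands above the count bar in each list, and the 15 mitochondrial copies hold 2.10% of TPM.

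Each gene with a count in any library was tested against 1 TPM, a level set for this purpose, on the scale of log2(TPM + 1). Among all 19914 genes tested, 62.8% were above and 23.2% below 1 TPM (limma, Benjamini-Hochberg adjusted p under 0.05). Of the 10123 pseudogenes, 7295 lacked counts throughout and 2828 were tested. Above 1 TPM were 330 pseudogenes, 11.7% of those tested, 1932 (68.3%) were below it, and 566 were not called. Their median was -0.78 on the log2(TPM + 1) scale against 1 TPM, beside 2.15 over all genes tested. Adding 1 gives this scale a floor at low levels, so these values are not log2 ratios of TPM itself. Of 2469 processed pseudogenes tested 262 were above 1 TPM and 1734 below. Of 282 unprocessed ones 42 were above and 167 below, and of 77 of all other types 26 were above and 31 below. By mean TPM, 555 pseudogenes reached 1 TPM, 201 reached 10 TPM, 72 reached 100 TPM and 9 reached 1000 TPM. The count below 1 TPM fell to 751 with edgeR's quasi-likelihood test and to 87 when only genes with a mean of at least 5 estimated counts were tested.

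The highest level of any pseudogene belonged to Gm29216, an unprocessed copy of part of mt-Co1, the mitochondrial gene of cytochrome c oxidase subunit 1. It stood at 19677, 19063, 15023 and 18957 TPM. The mitochondrial gene itself stood at 10974, 16725, 10744 and 11908 TPM. The copy was thus above its source in each of the 4 libraries, with a mean ratio of 1.48 ± 0.279 (SD, n = 4). By estimated counts the order was the other way round, with 103035, 92181, 54383 and 103821 counts for the copy and 237729, 336684, 163130 and 264771 for mt-Co1. Gm29216 has 492 bases, of which 483 align to positions 6390 to 6872 of the mitochondrial chromosome with 1 difference. Of its 462 stretches of 31 bases, 13 were found in no other transcript. The stretch of 31 bases is the default unit by which kallisto assigns reads. A stretch is called a member's own if no other measured transcript with a GENCODE M21 sequence holds it. The 1273 transcripts that matched no annotation were not searched.

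Gm28438 copies mt-Nd3, a subunit gene of respiratory complex I, over all its 345 bases with 1 difference. Its levels were 2724, 3276, 2013 and 2389 TPM beside 2487, 2232, 1506 and 2160 TPM for mt-Nd3. This copy also exceeded the mitochondrial gene in each library, with a mean ratio of 1.25 ± 0.182. Only 3 of its 315 stretches of 31 bases were its own.

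Both genes lie in a block on chromosome 1, on the minus strand between 24611535 and 24616197. The matches of the 7 pseudogenes of this block lie within a span of 4653 bases of the mitochondrial chromosome, from position 6390 to 11042. They follow its order, with gaps between most of them that were not compared. The other 5 members of the block are identical to the mitochondrial sequence over their whole length, and their levels differed widely. Gm10925, the copy of the ATP synthase gene mt-Atp6, stood at 71.0, 355, 333 and 44.6 TPM, high in libraries 2 and 3 and low in 1 and 4, beside 24820 to 33457 TPM for mt-Atp6. Gm28437, the copy of the oxidase gene mt-Co3, stood at 0.354, 13.2, 2.37 and 0.508 TPM and was not called above 1 TPM with limma (adjusted p = 0.336) but was with edgeR (adjusted p = 0.0138). Without library 2 its mean was -0.073 on the log2(TPM + 1) scale against 1 TPM.

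Gm28661, the copy of mt-Co2, did not exceed 0.0961 TPM in any library, while mt-Co2 stood at 16154 to 22536 TPM. Gm10222 and Gm28439, the copies of the complex I genes mt-Nd4l and mt-Nd4, lacked counts in all 4 libraries. A level of 3 counts in the shallowest library equals 1.91 TPM for Gm10222 and 0.383 TPM for Gm28439, a limit for counting error only. Both are identical to the mitochondrial sequence, so their reads cannot be told apart from it and this limit does not bound their level. The mitochondrial genes they copy were at 2834 to 4185 TPM and at 5875 to 8074 TPM.

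**Figure D2:**
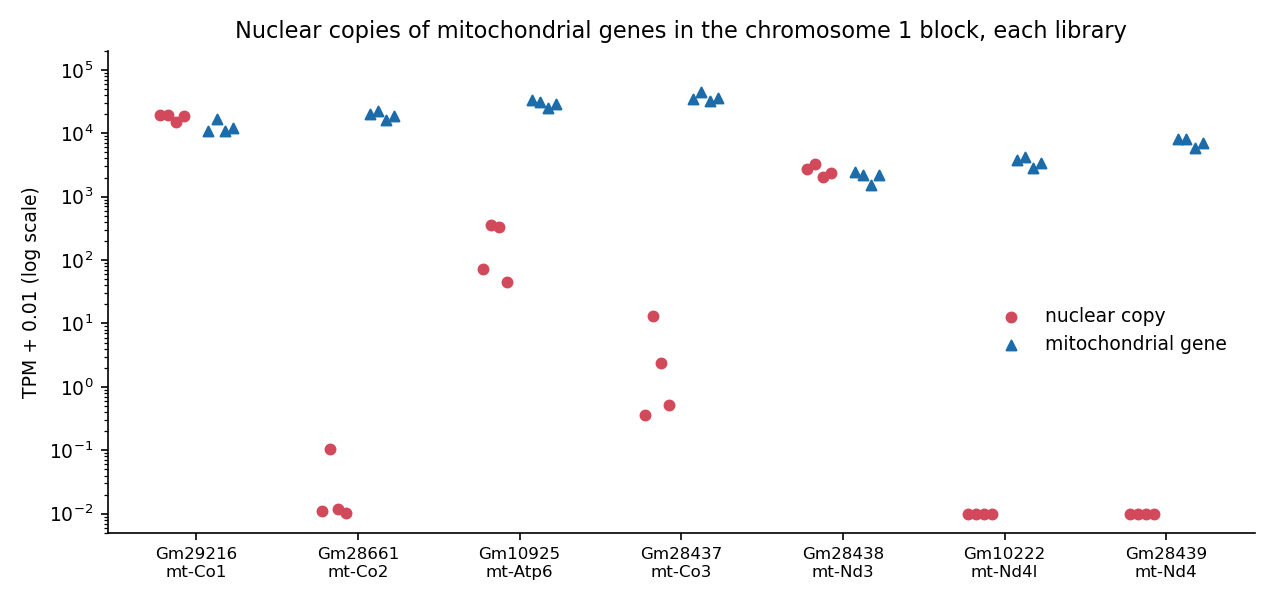
TPM plus 0.01 on a log scale for the 7 pseudogenes of the chromosome 1 block (circles) and the mitochondrial gene each copies (triangles), 4 libraries each, in the order of the mitochondrial sequence. Gm29216 and Gm28438 lie at or above their mitochondrial genes, while the copies that are identical to the mitochondrial sequence lie below theirs in every library, 2 of them at 0.

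Altogether 15 pseudogenes met the criterion for a mitochondrial copy, 90% identity over 80% of the transcript, and 13 of them had a count. They were 10 unprocessed and 5 processed pseudogenes. Their share of TPM was 2.10 ± 0.248%, of which Gm29216 and Gm28438 made up 98.1 to 99.8% per library. As a share of estimated counts it was 0.457 ± 0.0688%. The 13 protein genes of the mitochondrial chromosome held 16.02 ± 2.03% of TPM. The 8 copies outside the chromosome 1 block match the mitochondrial chromosome at 90.7 to 97.6% and had mean levels of 0.0707 to 2.505 TPM. The highest was Gm13341 on chromosome 2, a copy of mt-Co2 at 95.9% identity, with 3.26, 2.04, 1.36 and 3.35 TPM (limma, adjusted p = 0.0249). It was no longer called without library 1, 2 or 4, or with edgeR. Gm13340, a second copy of mt-Co1 next to it, covers the whole gene at 97.6% identity and stood at 1.58, 2.62, 0.884 and 1.84 TPM (limma, adjusted p = 0.122). Of its 1515 stretches of 31 bases 751 were its own.

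Among processed pseudogenes the highest levels were those of Gm12895 and Gm12896 on chromosome 4. Each stood at 4332, 5187, 2650 and 3241 TPM, highest in library 2 and lowest in library 3. Neither matched an annotated transcript outside the class at 90% identity over 50% of its length, and their content of G and C was 71.2 and 72.1%. The values of the pair were equal in each library to the last printed digit, in TPM and in estimated counts. A further transcript of 226 bases, which matched no gene in the annotation, had the same 4 values. Of the 196 stretches of 31 bases in each of the pair, 2 were its own, but that further transcript was not among those searched.

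Gm13394 copies Gapdh, the glycolytic enzyme gene, at 99.9% identity over 1000 bases. It stood at 2382, 1864, 2058 and 2064 TPM beside 1281, 957, 1063 and 1023 TPM for Gapdh. The copy was the higher in all 4 libraries, 1.94-fold on the means. Gm1821, a transcribed processed copy of the polyubiquitin gene Ubb with 690 bases in the files and 685 in the annotation, stood at 1884, 1900, 2365 and 1990 TPM beside 1493, 1593, 1878 and 1580 TPM for Ubb, again higher in all 4. Gm10123 is identical over its 490 bases to part of Ppia, the cyclophilin A gene. It stood at 1970, 1813, 1808 and 2092 TPM and below Ppia, at 2249, 1941, 1989 and 2204 TPM, in each library. Gm10182, a copy of the nucleosome-binding protein gene Hmgn2, stood at 1068, 918, 1006 and 1006 TPM, beside 1019 ± 55.3 TPM for Hmgn2. Its transcript had 1097 bases in the files and 273 in the annotation, so the match describes the annotated form only.

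Gm29013 on chromosome 1, annotated as unprocessed, matched no gene by the criterion. It stood at 998, 2327, 1081 and 3280 TPM, so that libraries 2 and 4 were high and libraries 1 and 3 low. Of its 207 stretches of 31 bases 176 were its own, against 13 of 462 in Gm29216. AW822252 on the X chromosome, a transcribed unprocessed pseudogene with a run of 31 A bases, stood at 277, 436, 449 and 465 TPM, lowest in library 1. Runs of at least 20 A or T bases were present in 73 of 10721 member transcripts with a sequence (0.681%). Among the 200 member transcripts of at least 10 TPM there were 7 (3.50%). Whether such runs are as common in transcripts outside the class was not tested.

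**Figure D3:**
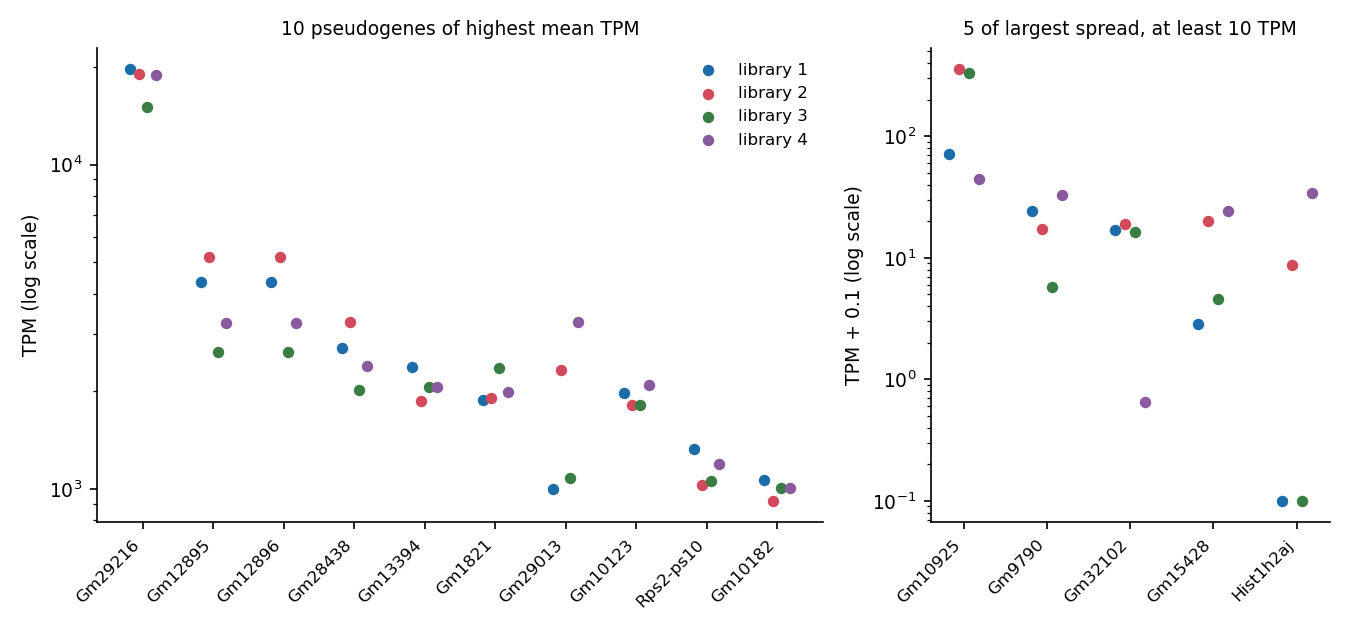
TPM in each of 4 libraries (colours) on a log scale, for the 10 pseudogenes of highest mean TPM on the left and, with 0.1 added, for the 5 of largest spread among those of at least 10 TPM on the right. Gm12895 and Gm12896 show the same 4 values, and Gm29013 and Gm10925 each fall into a high and a low pair of libraries. Gm10925 is identical to part of the mitochondrial sequence, so its reads cannot be told apart from mitochondrial ones.

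Copies of ribosomal protein genes were 907 genes matching 82 genes for proteins of the ribosome, which translates mRNA, and they held 0.977 ± 0.0946% of TPM. The matched genes themselves held 2.23 ± 0.199%. Of the 497 copies tested, 51 (10.3%) were above 1 TPM and 350 (70.4%) below (limma), beside 11.7 and 68.3% of all pseudogenes tested. Rps2-ps10, a transcribed copy of Rps2 at 99.4% identity, stood at 1326, 1026, 1053 and 1190 TPM. Rps2 stood at 18.9, 20.9, 30.2 and 11.1 TPM, so the copy was 56.7-fold higher on the means. Gm12918, identical over its length to part of Rpl13, stood at 1129, 974, 833 and 958 TPM beside 335, 307, 275 and 289 TPM for Rpl13. No stretch of 31 bases was found only in Gm12918 or only in the main transcript of Rps2-ps10, whose gene has 2 transcripts.

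The next 3 copies were among the 5 highest of this family. Rps23-ps1 stood at 447 to 569 TPM beside 57.2 to 82.2 TPM for Rps23. It lies opposite to an exon of Gm5148, and no source states that the libraries keep strand, so reads of the pair cannot be told apart. Rpl37rt stood at 398 to 516 TPM beside 109 to 150 TPM for Rpl37. Rpl3-ps1 on the X chromosome stood at 425 to 521 TPM beside 80.1 to 108 TPM for Rpl3. All 3 were above their matched gene in 4 of 4 libraries. None of the 395 stretches of 31 bases in Rps23-ps1 was its own, nor any of the 264 in the main transcript of Rpl37rt. In Rpl3-ps1 31 of 1180 were its own, so these levels rest mostly on reads divided by estimate.

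Copies were compared with their genes more widely, as a description, since those past a level were picked by that level. Of 1740 copies with a count whose matched gene also had one, 70 were above that gene in all 4 libraries, 1577 below it in all 4 and 93 mixed. Among the 67 copies of at least 100 TPM the split was 45 above, 16 below and 6 mixed. Of the 497 ribosomal protein copies with a count, 27 were above their gene in all 4 libraries, 466 below and 4 mixed, with a median ratio of 0.00147. Among the 32 of them that reached 100 TPM, the 27 were above, 2 below and 3 mixed, with a median ratio of 2.09. Beside them, 16 of 32 copies of other nuclear genes at that level were above their gene. Gm45647 had the largest ratio among copies of at least 10 TPM, 739-fold. It stood at 91.6, 140, 61.4 and 51.6 TPM and matched Mylk4, a muscle kinase gene at 0.0694 to 0.173 TPM, at 94.3% identity. None of the 165 stretches of 31 bases in Gm45647 was its own, so all of them also occur in other transcripts.

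**Figure D4:**
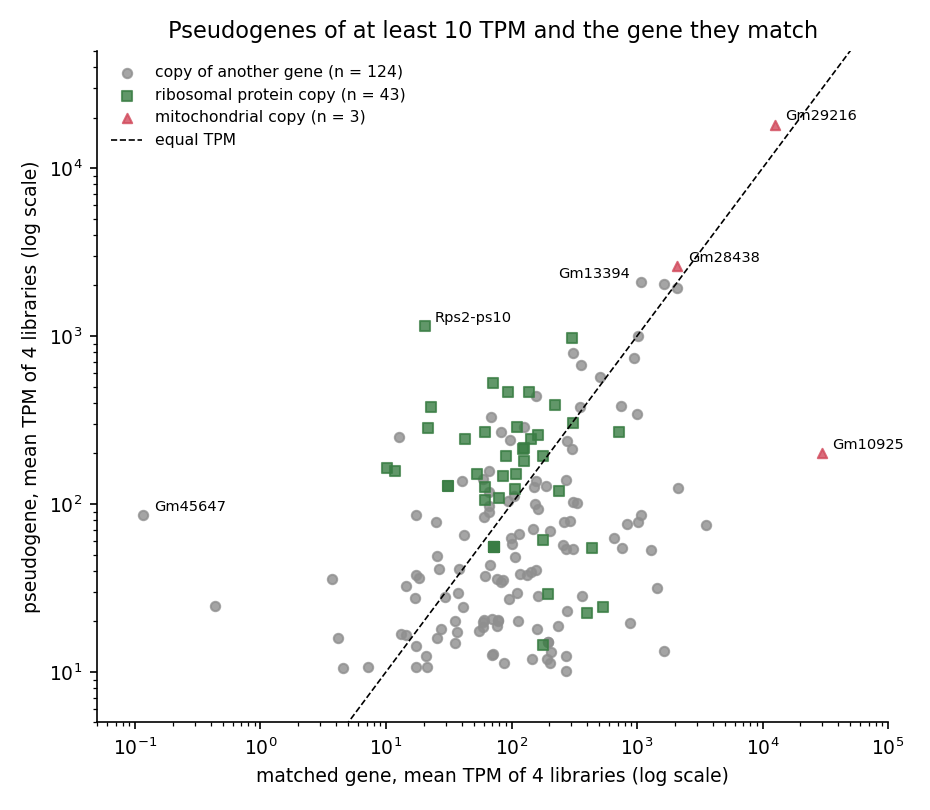
Mean TPM of 170 pseudogenes of at least 10 TPM that copy another gene, against the mean TPM of the gene each matches, both on log scales with a dashed line at equal TPM. Most ribosomal protein copies (green squares, 27 of 43 in all 4 libraries) lie above the line, and Gm10925 lies far below it.

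Most of the strong members could hardly be told from another transcript by sequence. Of the 200 member transcripts of at least 10 TPM, 180 were copies by the criterion and 91 had no stretch of 31 bases of their own, other transcripts of the same gene being counted as others. Another 45 had some, but in under 10% of their stretches. Those 91 transcripts held 1.69 ± 0.0828% of TPM and the 45 held 3.67 ± 0.430%, against 5.94% for all 200. In 24 transcripts at least 50% of the stretches were their own, and these held 0.281% of TPM. Exons of another gene overlapped 23 of the 200, in 19 cases only on the opposite strand.

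Identical TPM above 0 in all libraries was found for 20 member transcripts in 9 groups. In 7 of the groups all transcripts had one and the same sequence, and in the other 2 a transcript without a match in the annotation took part. Gm13841 and Gm8210, copies of Rpl29 on chromosomes 5 and 1, each stood at 136, 123, 120 and 133 TPM, beside 25.5 to 35.9 TPM for Rpl29. Rpl35a-ps2, Rpl35a-ps3, Rpl35a-ps4, Rpl35a-ps6 and Gm10243 lie on 5 chromosomes and have the same 333 bases. Each stood at 67.8, 52.3, 44.3 and 58.1 TPM, below Rpl35a at 84.4, 72.3, 52.2 and 82.3 TPM in every library.

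Another group joined pseudogenes with a coding gene. Gm10231, a transcript of Gm10175 and a transcript of Atp5g2, which encodes the c subunit of mitochondrial ATP synthase, share 441 bases and each stood at 45.1, 28.5, 27.6 and 36.1 TPM. Gm15801 and Gm8783, copies of the phosphatase gene Ptp4a1 on chromosome 19, each stood at 7.77, 18.1, 20.3 and 14.4 TPM. Most groups of copies with equal sequence had no counts. In all, 537 member transcripts shared their whole sequence with another member, in 198 groups, and 186 of the groups had none. Among all pseudogenes, 7295 of 10123 genes had no count. Where the sequence also occurs in a transcript outside the group, a lack of counts does not bound the level. Of the 12 groups with a count, 10 had equal TPM in each library. In the other 2 groups the lengths in the files differed between transcripts whose annotated sequences are equal, as for Gm10171 (628 bases) and Gm10233 (890 bases, at 0).

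Length set how many TPM a count was worth. Pseudogene transcripts had a median length of 598 bases against 1240 in the other matched transcripts, and 5.16% of them were under 200 bases against 0.485%. Among transcripts with at least 1 estimated count, the median ratio of TPM to CPM, the estimated count scaled to the library total with no length correction, was 2.45, 2.59, 2.52 and 2.49 for pseudogenes in the 4 libraries. For the other transcripts it was 0.851, 0.869, 0.944 and 0.849. The log2 difference was 1.52 ± 0.07 (SD, n = 4). The ratio follows from the effective length by which kallisto divides each count, and the lengths are the same in every library, so this difference is a description with no test.

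Members from 300 to under 500 bases held 40.4% of pseudogene counts and 52.2% of pseudogene TPM. Those of 1000 bases or more held 31.6% of the counts and 9.90% of the TPM. Under 200 bases the shares were 0.333 and 2.06%. At the median effective length of that shortest class, 1 count was worth 1.14 to 1.95 TPM, so that a single count alone passed 1 TPM. Of the 20 pseudogenes highest by TPM, 15 were also among the 20 highest by CPM.

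**Figure D5:**
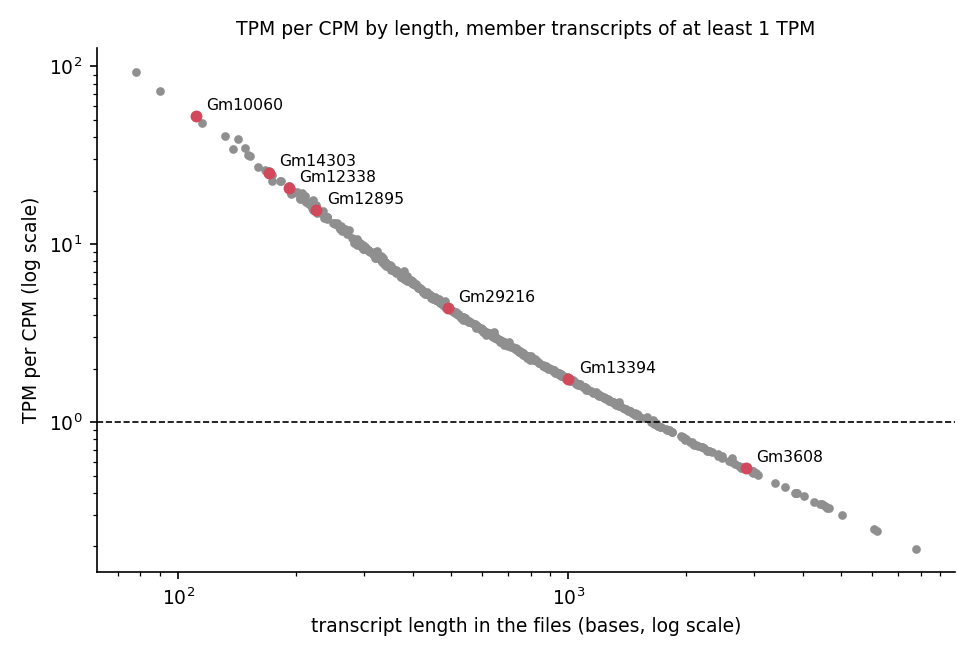
TPM per CPM against transcript length in the files, both on log scales, for member transcripts of at least 1 TPM by the mean of 4 libraries, with named members in red. The ratio falls from 52.5 for Gm10060 (111 bases) to 0.549 for Gm3608 (2858 bases), with the dashed line at a ratio of 1.

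Gm12338, which matches Cox7c, a small subunit of cytochrome c oxidase, has 192 bases. It stood at 585, 450, 548 and 698 TPM from 631, 451, 406 and 860 estimated counts, and ranked 15th by TPM but 78th by CPM. Cox7c stood at 510, 507, 457 and 543 TPM, so the order of the pair differed in library 2. Gm14303, with 171 bases, stood at 220, 290, 248 and 320 TPM from 149 to 325 counts. It ranked 31st by TPM and 125th by CPM, and lay below Rps29, at 588 to 823 TPM, in all libraries. Gm10443 (210 bases), a copy of Rps28, stood at 192, 199, 172 and 209 TPM, above Rps28 in all 4. Gm10060 (111 bases), a copy of part of Nsfl1c, stood at 73.1 to 127 TPM from only 29.1 to 41.2 counts, and its rank was 75th by TPM and 267th by CPM.

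Members of the remaining types did not reach 100 TPM on the mean. Gm17661, of the plain type pseudogene, stood at 73.6, 104, 69.9 and 73.8 TPM. All of its 240 stretches of 31 bases were its own among the transcripts searched. It lies opposite to an exon of Ptpmt1, a mitochondrial phosphatase gene. Gm3608, a copy of the actin capping gene Capza1, stood at 29.2 to 45.5 TPM, above Capza1 at 14.7 to 21.4 TPM in all libraries. Gm17420, with 153 bases, stood at 8.001 to 23.4 TPM from 6.79 to 13.8 counts. Hyi, a polymorphic pseudogene named for hydroxypyruvate isomerase, stood at 10.3 to 13.8 TPM.

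Spread between libraries was uneven. For the 129 pseudogenes from 10 to 100 TPM the median SD of log2(TPM + 1) was 0.32, beside 0.27 for 7763 other genes in that range. From 100 TPM up it was 0.17 for 72 pseudogenes and 0.17 for 1469 other genes. The largest SD was that of Hist1h2aj, a histone H2A pseudogene, at 0, 8.62, 0 and 34.0 TPM. It had counts in libraries 2 and 4 only, at 24.7 and 113 by estimate. It was not called above 1 TPM (limma, adjusted p = 0.307), but was with edgeR (adjusted p = 0.000762). It lies opposite to an exon of Gm44357. Hist1h2ai, the gene it matches at 99.7% identity, stood at 19.4, 30.6, 27.4 and 6.88 TPM. Of the 322 stretches of 31 bases in Hist1h2aj, 21 were its own, so most of its sequence is shared with other transcripts.

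Gm32102, a copy of the mitochondrial import gene Timm8b, stood at 16.7, 18.7, 16.2 and 0.556 TPM, the last from 1 count. It was called above 1 TPM (limma, adjusted p = 0.0168), but not without library 1, 2 or 3 (adjusted p = 0.0546 to 0.0637). It lies opposite to an exon of 4921504A21Rik. Gm15428, a copy of Pclaf, which encodes a partner of the replication clamp, stood at 2.75, 19.97, 4.45 and 24.2 TPM, high in libraries 2 and 4. Pclaf itself was even, at 70.1 to 76.3 TPM. Gm9790, a copy of Higd1a, stood at 23.98, 17.1, 5.69 and 32.8 TPM, lowest in library 3, beside 53.9 to 65.3 TPM for Higd1a.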

How the data were processed

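RNA of 4 libraries was processed by the authors with kallisto and sleuth on mm10, per the submitters' processing notes; versions and index release: not given in the sources used here. Deposited per transcript were an estimated count and a TPM. TPM recomputed from the deposited counts and effective lengths differed by at most 0.132. The low-input cDNA kit amplifies and no molecular identifiers are named, so limits cover counting error only.

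Of 99567 transcripts 98294 matched GENCODE M21. The 1273 others held 3.43 ± 0.919% of TPM and were not tested, but stay in library totals. Members were compared with BLAST+ 2.17.0 to the mitochondrial chromosome, rebuilt from its 37 annotated genes (90% identity over 80% of length), and to transcripts outside the class (90% over 50%). Of the members, 10309 had the same length in files and annotation. Overlapping or near-identical genes share reads by estimate, so their levels are uncertain.

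Gene sums of log2(TPM + 1) were tested against 1 TPM with limma 3.58.1 (trend, two-sided, Benjamini-Hochberg over 19914 genes). Tested on simulated data (19914 genes, dispersion 0.1), the fit placed 100% of 200 genes set at 4 TPM above and 98.0% of those set at 0.25 TPM below that level, and called 5.0% of those set at 1 TPM. Estimated counts were rounded for edgeR 4.0.16 and DESeq2 1.42.0 in the alternatives. Library shares were tested by exact sign-flip permutation. Members and lists were chosen with earlier results of these data known. Named were the 10 highest members, the 4 highest of each type group, mitochondrial copies of at least 1 TPM, the 5 highest groups of identical TPM, the 5 highest ribosomal protein copies, the 5 of largest spread, the 5 shortest of the 100 highest, and the gene each matches. Outside that rule, the remaining block copies, Gm10171 and Gm10233 were named after their values were seen. Software was R 4.3.3 and Python 3.11.15. Some items are not reported here.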

Additional observations from a re-analysis of the deposited data

Results flagged for a closer look

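Of 49 sets of 4 library values examined (43 named pseudogenes and 6 summary measures), 5 had 1 library far from the other 3. Chance flags about 1 in 20 of independent sets. Here some sets were equal to each other and some genes were named for their large spread, so that rate is no measure for these 5. Gm29216 was low in library 3, at 15023 TPM against 18957 to 19677 TPM elsewhere. AW822252 was low in library 1, at 277 TPM against 436 to 465 TPM. Gm17661 was high in library 2, at 104 TPM against 69.9 to 73.8 TPM. Gm32102 was low in library 4, at 0.556 TPM against 16.2 to 18.7 TPM. Gm28437 was high in library 2, at 13.2 TPM against 0.354 to 2.37 TPM. Library 3 was the shallowest of the 4. The 13 protein genes of the mitochondrial chromosome also held their lowest share of TPM there, 13.5% against 15.7 to 18.4% elsewhere. The part of either in the value of Gm29216 was not tested.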

How the results depend on the processing

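The 330 pseudogenes above 1 TPM became 302 to 338 when a library was left out or with the low-count filter, and stayed within 1.5 times under the other settings tried. Rescaling TPM over nuclear protein-coding genes raised the median of all genes by 0.38 (log2) and gave 357 above and 1752 below, against 1932 below in the main test. The count below was 751 with edgeR, and 87 with a mean of at least 5 estimated counts, where fewer genes were tested; it was 1549 to 1655 with a library left out. The share of mitochondrial copies was 0.457% by counts against 2.10% by TPM. The signed differences kept their direction in every setting tried. Among single genes, Gm28437 reversed to -0.073 without library 2 and was 1.06 at most with a library left out; 7 values fell below the threshold and 3 rose past it. No paired analysis was possible because there is 1 group. Of the 10123 pseudogenes, 7295 had no count, and the part of depth in this was not tested.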

Other observations

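Gm20594 on chromosome 6, annotated as protein-coding and so not a member, matched the mitochondrial 16S rRNA gene mt-Rnr2 at 88.5% identity over 96.2% of its 449 bases. It stood at 9903, 11633, 10299 and 11217 TPM. The 2 mitochondrial rRNA genes were not among the transcripts measured, so reads of mt-Rnr2 had no transcript of their own. The part of such reads in the level of Gm20594 was not tested. A transcript of 159 bases that matched no gene in the annotation stood at 29183, 35987, 18251 and 20038 TPM, above every pseudogene in libraries 1, 2, 3 and 4. Its order over the libraries, highest in 2 and lowest in 3, was also that of Gm12895 and Gm12896.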
